A study of Mus musculus with 6 samples.

Results

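Ttr, Clic6, Otx2, Folr1, Kcne2 and Aqp1 are 6 genes known for their expression in the choroid plexus epithelium, and their levels were read in whole brains of mouse embryos. The genes were chosen by name, with earlier results of these data known, and every RefSeq transcript ID of these genes in the count tables was kept. The tables held 6 IDs from 5 of the 6 genes among 23485 IDs in all. For Folr1, the folate receptor of the epithelium, no ID in the tables mapped to the symbol, and it is not analysed here. Only 3 of the 6 IDs, those of Ttr, Clic6 and Aqp1, reached 10 or more counts in at least 1 sample and could be compared between the sexes, among 13374 IDs tested.

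The samples were 3 female and 3 male samples of wild-type C57BL/6 embryos at E15.5. Sex was read from the testicular cords of the gonads. RNA was extracted from single whole brains and then pooled over several embryos of one sex, and a value therefore describes a pool and no single embryo. The deposited tables hold raw counts per transcript from total RNA, 4908565 to 10294443 per sample. Levels are given in CPM, counts scaled by the library total with TMM factors. The limit that a count of 0 allows, 3 counts, lay between 0.291 and 0.611 CPM and takes in counting error only. The labels matched the sex markers, with 3 of 3 tested IDs sex-biased, and neural RNA was abundant, with Tubb3, a neuronal tubulin, at 1230 to 1970 CPM. Male sample 1 stood apart from the other males, as its counts gave chi-square values over degrees of freedom of 34.4 and 44.9 against males 2 and 3, where the other pairs of one sex gave 9.03 to 13.8.

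The choroid plexus is a folded sheet in the brain ventricles. Its epithelium secretes cerebrospinal fluid and forms the barrier between blood and that fluid. The epithelium arises from the dorsal midline of the neural tube, where the homeobox factor Otx2 is required for it to form and to be maintained. Transthyretin, encoded by Ttr, is secreted by these cells and carries thyroid hormone and, together with retinol-binding protein, retinol. Aqp1 is the water channel of the apical membrane, Kcne2 is an accessory subunit of potassium channels, and Clic6 belongs to the chloride intracellular channel family. Whole brains were used, so fewer epithelial cells and less RNA per cell cannot be told apart in any value below.

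Ttr had the highest level per transcript length of the 3 genes that could be compared. It was measured by NM_013697, which has 4 exons in GENCODE and lies on chromosome 18 from 20823751 to 20832825 on the plus strand of NCBIM37 (mm9). Female samples 1, 2 and 3 had 2599, 2469 and 4984 counts, and male samples 1, 2 and 3 had 6745, 4110 and 5288 counts. Scaled to CPM, the female values were 421, 493 and 509 and the male values were 698, 628 and 529. All male samples were above all female samples, and female 3 and male 3 were the closest pair. The opposite-strand gene Gm16090 overlaps the annotated start of Ttr, and the treatment of strand in the counting is not stated.

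Aqp1 came next in level per length. Its ID, NM_007472, has 4 exons on chromosome 6 from 55286426 to 55298549 on the plus strand, and no other annotated gene overlaps it. Female samples had 743, 541 and 1388 counts and male samples had 1403, 746 and 1404 counts. The corresponding levels were 120, 108 and 142 CPM in females and 145, 114 and 141 CPM in males. Replicate 2 was the lowest of each sex, and the sexes overlapped.

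Clic6 had the lowest level per length of the 3 and was measured by NM_172469, which has 6 exons on chromosome 16 from 92485981 to 92541488 on the plus strand. Female samples had 155, 164 and 317 counts and male samples had 361, 177 and 321 counts. These were 25.1, 32.8 and 32.4 CPM in females and 37.4, 27.1 and 32.1 CPM in males. Female 1 was the lowest sample and male 1 the highest, and the other 4 samples of both sexes lay between them. The gene 2410124H12Rik, from 92478988 to 92497610 on the same strand, overlaps the first part of Clic6, so reads in the shared stretch are uncertain.

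**Figure D1:**
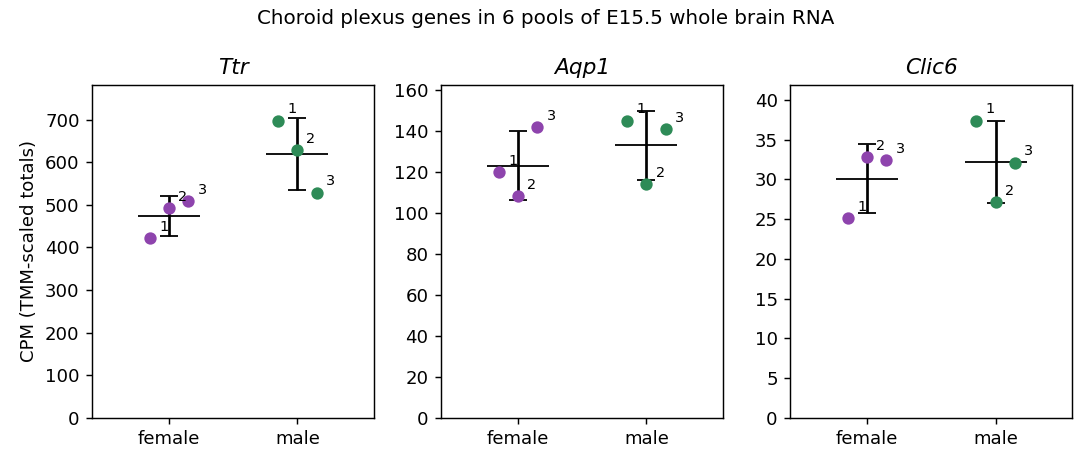
Level of Ttr, Aqp1 and Clic6 in CPM in each of 3 female and 3 male samples (numbered points), with the mean and SD of each sex as a bar. The male points of Ttr, from 529 to 698 CPM, lie above the female points, from 421 to 509 CPM, and the sexes overlap for Aqp1 and Clic6.

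The order of the 3 genes was the same in all 6 samples once the level was divided by transcript length. Over all 6 samples Ttr averaged 448 ± 82.0 CPM per kb (SD, n = 6), Aqp1 48.8 ± 6.11 and Clic6 8.28 ± 1.17. The lengths used were 1219, 2627 and 3758 nt, those of the longest annotated transcript. The ranges were far apart, with Ttr at 345 to 573 CPM per kb, Aqp1 at 41.1 to 55.3 and Clic6 at 6.68 to 9.94. Ttr alone made up 74.3% to 81.6% of the summed CPM of all 6 IDs.

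Otx2 and Kcne2 were at or near 0 counts in the tables. Otx2, on chromosome 14 from 49277354 to 49287319 on the minus strand, was represented by NM_001360225, 1 of its 6 RefSeq transcripts, with 0, 1 and 0 counts in females and 0, 1 and 1 in males. Kcne2, on chromosome 16 from 92292634 to 92298374 on the plus strand, was represented by both of its 2 RefSeq transcripts. NM_134110 had 2 counts in each female and 5, 2 and 0 in males. NM_001358372 had 3 counts in female 2 and 0 in the other samples. Neither gene can be compared between samples at this depth, and a level of 0 here does not show that the gene was silent.

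Start sites are described for Aqp1, Kcne2 and Otx2, the genes for which windows were found. Aqp1, a well counted gene, has a single annotated start, and Kcne2 and Otx2 have several. Ttr and Clic6, also well counted, had no window, so the number of starts cannot be set against the counts here. The sequences are RefSeq windows on GRCm38.p6, a later build than that of the tables, and run from 250 bases before to 50 bases after a start site, written 5′ to 3′ in the direction of transcription. RefSeq windows were found for 3 of the 6 genes, 7 windows in all, with 1 for Aqp1, 2 for Kcne2 and 4 for Otx2, of which the first 2 share 164 bases. The Kcne2 start sites lie 3227 bp apart. The core site of Otx factors (TAATCC or its reverse complement GGATTA) was searched on both strands and is in capitals. It was found in 1 of the 7 windows, an Otx2 window in which it begins at base 40, and in 7.06% of 32851 mouse windows of the same length. The search for TATAAA found 1 of 7 member windows against 13.6% of all windows, and CCAAT was found in 1 of 7 against 37.4%. Such matches describe letters and are not evidence of binding. The 4 windows are as follows.
Aqp1, chr6:55336049-55336348, plus strand: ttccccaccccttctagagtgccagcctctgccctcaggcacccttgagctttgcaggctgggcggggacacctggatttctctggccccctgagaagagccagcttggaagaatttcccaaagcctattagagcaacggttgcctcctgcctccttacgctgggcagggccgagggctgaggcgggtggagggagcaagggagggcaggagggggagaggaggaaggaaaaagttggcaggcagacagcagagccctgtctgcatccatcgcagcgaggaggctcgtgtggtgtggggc
Kcne2 first start, chr16:92292139-92292438, plus strand: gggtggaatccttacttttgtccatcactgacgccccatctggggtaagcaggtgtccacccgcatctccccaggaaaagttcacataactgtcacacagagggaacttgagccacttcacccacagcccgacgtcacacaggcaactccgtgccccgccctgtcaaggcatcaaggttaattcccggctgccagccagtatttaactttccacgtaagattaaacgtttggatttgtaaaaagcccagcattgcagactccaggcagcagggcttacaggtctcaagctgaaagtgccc
Kcne2 second start, chr16:92295366-92295665, plus strand: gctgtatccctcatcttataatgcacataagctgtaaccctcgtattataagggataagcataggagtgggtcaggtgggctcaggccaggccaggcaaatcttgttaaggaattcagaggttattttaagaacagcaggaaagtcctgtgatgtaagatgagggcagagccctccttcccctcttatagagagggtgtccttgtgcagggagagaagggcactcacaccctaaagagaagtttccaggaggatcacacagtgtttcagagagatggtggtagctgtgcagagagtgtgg
Otx2 window with the match, chr14:48665060-48665359, minus strand: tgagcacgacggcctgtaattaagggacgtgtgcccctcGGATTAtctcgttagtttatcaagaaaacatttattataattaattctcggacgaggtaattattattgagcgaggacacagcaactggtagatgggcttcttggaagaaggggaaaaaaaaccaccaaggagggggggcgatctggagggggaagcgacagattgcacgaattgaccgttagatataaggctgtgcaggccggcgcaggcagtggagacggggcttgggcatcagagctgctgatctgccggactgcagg

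Low counts were more frequent in genes with several RefSeq transcripts than in genes with 1, in the tables as a whole. Ttr, Aqp1 and Clic6 each have 1 RefSeq transcript, whereas Otx2 has 6 and Kcne2 has 2. Folr1, with no ID in the tables, has 4. Of 14522 genes with 1 RefSeq transcript 59.9% had a mean of 10 or more counts per sample, with all IDs of a gene added, against 38.1% of 6415 genes with 2 or more. The share was 38.3% with exactly 2 transcripts and 37.9% with 3 or more, so it did not fall further with their number. Among the genes with 2 or more, 18.5% had all their RefSeq transcripts in the tables. In the 6 further choroid plexus lists described below, 44 of 44 IDs of single-transcript genes were tested against 15 of 46 IDs of genes with several. How reads shared between transcripts were counted is not stated in the sources used here, and its part in the low counts of Otx2 and Kcne2 was not tested.

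**Figure D2:**
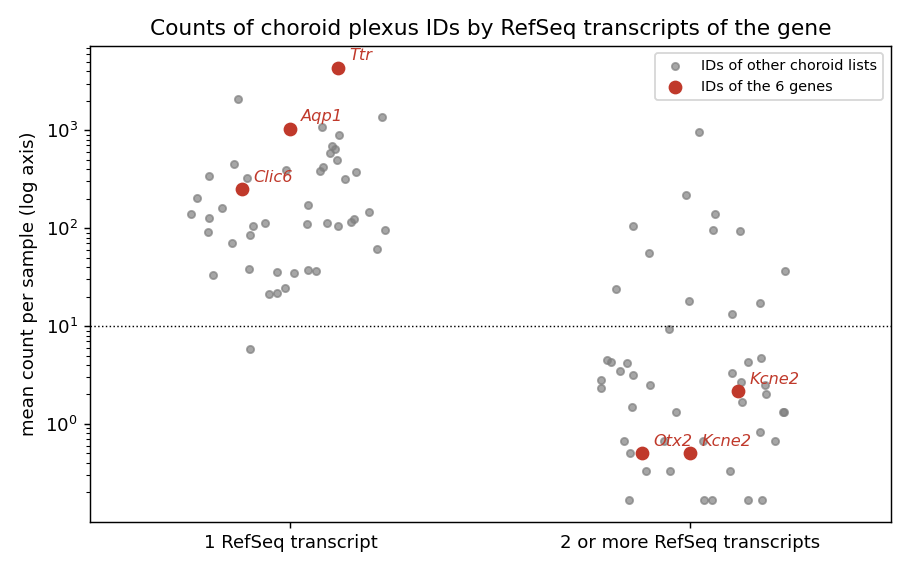
Mean count per sample (log axis) of the 6 IDs of the choroid plexus genes (red, named) and the 90 IDs of the 6 further lists (grey), split by the number of RefSeq transcripts of the gene; horizontal positions are spread at random and the dotted line marks 10 counts. Ttr, Aqp1 and Clic6 sit on the left above the line, and Otx2 and both Kcne2 IDs sit on the right below it.

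Kcne2 and Clic6 are neighbours on chromosome 16, 187606 bp apart, with 6 other annotated genes between or overlapping them. Counts along this stretch were uneven. Fam165b, next to Kcne2 and with 1 RefSeq transcript, had 126 to 308 counts per sample. Kcne1, a relative of Kcne2 with 2 transcripts, had 0 to 8 counts, and the 2 IDs of Rcan1, an inhibitor of calcineurin, had 0 to 9 and 7 to 37. Runx1, on the far side of Clic6, had no ID among those mapped.

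The study set out to find transcripts that differ between female and male brains, and none of the 3 tested choroid plexus IDs passed the main test used here. With edgeR's quasi-likelihood test and an adjusted p under 0.05 as the limit, 4 of all 13374 IDs (0.0299%) were called sex-biased. Ttr averaged 474 ± 46.8 CPM in females and 619 ± 84.9 CPM in males (SD, n = 3 each). Its log2 fold change of male over female was 0.38 with an SE of 0.13, a fold of 1.3 with 1.08 to 1.57 at 2 SE on either side. The unadjusted edgeR p was 0.0136 and the adjusted p was 0.351, which ranged from 0.043 to 0.809 over the alternative fits. The lowest came from DESeq2 with 1 RUVr factor, the one alternative in which Ttr passed. That is the kind of test the study used, with a number of factors it does not state, and it called 370 of the 7670 IDs given an adjusted p (4.82%). DESeq2 without such a factor gave Ttr an adjusted p of 0.125 and called none of the 3 members, and 107 of 5595 IDs (1.91%). Without female sample 1 the unadjusted edgeR p of Ttr was 0.0753 and the log2 fold change 0.302, and without male sample 1, which stood apart, the log2 fold change was 0.284.

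Differences of the size seen for Ttr were also seen in many other IDs. Ttr was 1 of 3 tested members with an unadjusted p under 0.05, where 11.5% of all IDs had one. It was also the 1 member of 3 with every male sample above every female sample, which 8.7% of all IDs showed. Median fold changes were also read among IDs of like transcript length, in 1 window around each of the 3 genes. Among 1031 IDs within 20% of the length of Ttr the median log2 fold change was 0.14, and 26.3% of them had a larger value than Ttr. The median was 0.04 around the length of Aqp1 and -0.02 around that of Clic6, the longest of the 3. The part of length in the Ttr difference was not tested.

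Aqp1 and Clic6 differed less between the sexes than their replicates did. Aqp1 averaged 123 ± 17.0 CPM in females and 133 ± 16.8 CPM in males, and its log2 fold change was 0.11 with an SE of 0.14 (edgeR adjusted p = 0.798). The interval of 2 SE on either side ran from a fold of 0.885 to 1.32. Clic6 averaged 30.1 ± 4.3 CPM in females and 32.2 ± 5.15 CPM in males, with a log2 fold change of 0.10 and an SE of 0.18 (edgeR adjusted p = 0.859). Its interval ran from 0.835 to 1.38. Without male sample 1 the sign of the Clic6 difference turned to -0.0229, and without female sample 1 it turned to -0.0151. The log2 fold change of Aqp1 was 0.0414 without male sample 1. The summed CPM of all 6 IDs was 628 ± 58.4 in females and 784 ± 90.5 in males, most of which was Ttr.

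Whether the 3 genes moved together was asked with log2 CPM over the 6 samples. Each gene was compared with its own mean. Ttr stood at -0.36 in female 1, its lowest sample, and at 0.37 in male 1, its highest. Clic6 also had its lowest value in female 1, at -0.29, and its highest in male 1, at 0.27. Aqp1 was highest in male 1 too, at 0.19, but lowest in female 2, at -0.24. Male 1 was thus high and female 1 below the mean for all 3 genes, whereas male 2 was high for Ttr, at 0.22, and low for Clic6 and Aqp1, at -0.19 and -0.16.

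**Figure D3:**
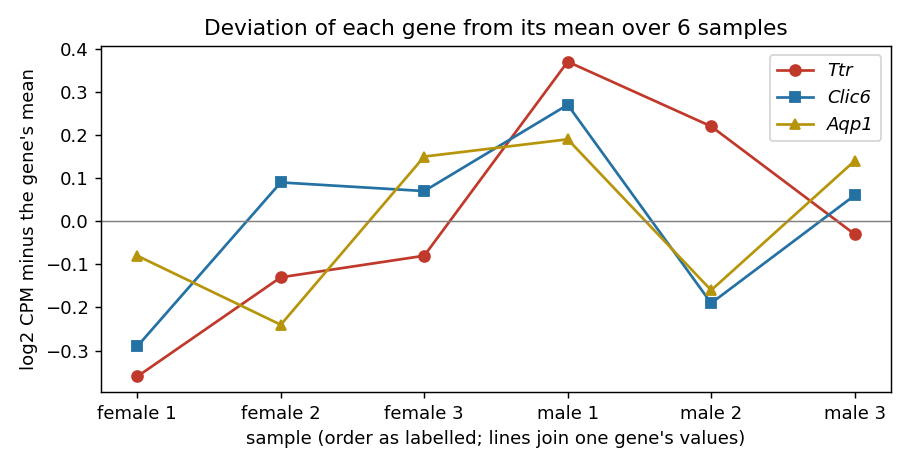
Deviation of log2 CPM from the mean of each gene over 6 samples, for Ttr, Clic6 and Aqp1; lines join the values of one gene and carry no order in time. All 3 genes are above their mean in male 1 and below it in female 1, and Ttr parts from the others in male 2.

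No pair of genes was shown to move together. Ttr and Clic6 had a Pearson r of 0.55 (exact permutation p = 0.242, adjusted 0.435 over 3 pairs, n = 6) and a Spearman rho of 0.43 (exact permutation p = 0.419). Leaving out male 1 and female 1, the samples farthest from the median of Ttr, gave an r of -0.98 over the other 4 samples. Clic6 and Aqp1 had an r of 0.55 (exact permutation p = 0.29, adjusted 0.435) and a rho of 0.37 (exact permutation p = 0.497), and r was 0.33 without female 1 and male 2. Ttr and Aqp1 had an r of 0.33 (exact permutation p = 0.497, adjusted 0.497) and a rho of 0.49 (exact permutation p = 0.356), and r was -0.23 without male 1 and female 1. With each sex centred on its own mean the r values were 0.6, 0.51 and 0.11 in the same order. Single samples moved these values in both directions. With one sample left out, r of Ttr and Clic6 ran from 0.149 without female 1 to 0.905 without male 2. For Clic6 and Aqp1 it ran from 0.342 without male 1 to 0.901 without female 2, and for Ttr and Aqp1 from -0.041 without male 1 to 0.616 without male 2. Without male 1, which stood apart, r of Ttr and Clic6 was 0.172. The tests were two-sided.

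The proportions between the genes also varied from sample to sample. The ratio of Ttr to Aqp1 in CPM, which is not corrected for length, was 3.5, 4.56 and 3.59 in females and 4.81, 5.51 and 3.77 in males. The ratio of Ttr to Clic6 was 16.8, 15.1 and 15.7 in females and 18.7, 23.2 and 16.5 in males. The ratio of Aqp1 to Clic6 was 3.3 to 4.79, with both ends of that range in females. Male 2 had the highest ratio of Ttr to both other genes. The SD of log2 CPM over 6 samples was 0.26 for Ttr, 0.206 for Clic6 and 0.183 for Aqp1, and the median over 8358 IDs with a mean of 50 or more counts was 0.217.

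The IDs whose pattern was most like that of Ttr were not choroid plexus genes. Likeness was the root mean square difference of centred log2 CPM over the 6 samples among 8355 IDs that had a mean of 50 or more counts and were not members. The nearest were Nudt19 at 0.0275 (r = 1.0), Psmb7, a proteasome subunit, at 0.0384, Sccpdh at 0.0399, Trappc5 at 0.0421 and Eid2 at 0.0437. Clic6 lay at 0.207 with 2259 IDs nearer to Ttr, and Aqp1 at 0.241 with 3177 nearer, where the median over the 8355 was 0.28. An r of 0.8 or more with Ttr was found for 1215 of them (14.5%), against 4.28% for Clic6 and 5.4% for Aqp1. Rpn1, Myog, Lman2 and Clec14a were among the IDs nearest to the mean pattern of the 3 genes, at 0.0239 to 0.0338.

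Further genes of the choroid plexus and its origin were grouped in 6 lists with 81 genes, of which 75 had an ID and 59 of 90 IDs were tested. Whole brains were read, and how much of the RNA of these lists came from the choroid plexus was not tested. None passed an adjusted p under 0.05 in the main edgeR test, although 1 did without a low-count filter and 2 with 2 RUVr factors. DESeq2 called none, but it gave an adjusted p to only 17 of the 59. In the main test 4 of 59 had an unadjusted p under 0.05. All 4 were higher in males, where 6.68% of all IDs were higher and 4.82% lower at that p. The number at that p was 0 without female sample 2, 1 without female sample 1 or male sample 1, and 8 without male sample 3. The share of all IDs at that p moved too, to 5.61%, 5.73%, 9.49% and 14.4% without female 2, female 1, male 1 and male 3, from 11.5%. The median log2 fold change over the 59 IDs was -0.06, and it was -0.01 over all tested IDs. The summed level of the lists overlapped between the sexes, at 1860 to 2000 CPM in females and 1790 to 2030 CPM in males.

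Of 10 tested IDs of transport genes of the epithelium 8 lay below 0 in log2 fold change, where 6822 of all 13374 tested IDs did. The median of this list was -0.15, and none of its IDs had an unadjusted p under 0.05. Slc12a2, the sodium, potassium and chloride cotransporter, was at 268, 286 and 291 CPM in females and 235, 241 and 288 CPM in males. Slc29a4, a monoamine transporter, and the glucose transporter Slc2a12 had log2 fold changes of -0.16 and -0.01, the latter of either sign over the alternative fits. That of Slc29a4 was -0.28 without male 1 and -0.056 without male 3. Genes for secreted and surface proteins had a median of -0.15 over 12 tested IDs. Col8a1, a short-chain collagen, was at 163 to 204 CPM in females and 152 to 177 CPM in males, and the BMP antagonist Sostdc1 had a log2 fold change of -0.16. Igfbp2, which binds insulin-like growth factors, was at 16.7, 4.99 and 29.8 CPM in females and 43.5, 32.9 and 26.3 CPM in males. Its log2 fold change was 0.95 with an SE of 0.40 (edgeR adjusted p = 0.4), and female 2 was far below the other samples. The log2 fold change was 0.539 without female 2 and 1.64 without female 3. It passed the adjusted threshold in edgeR without a low-count filter and in edgeR with 2 RUVr factors, at adjusted p values of 0.00117 and 0.00217.

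Junction and keratin genes of the simple epithelium had a median log2 fold change of 0.18. Of their 6 tested IDs 5 lay above 0, where 6552 of all 13374 tested IDs did. Krt8 was at 30.6, 30.4 and 38.8 CPM in females and 56.0, 38.4 and 43.7 CPM in males, and its partner Krt18 at 40.2, 41.9 and 45.9 CPM in females and 63.2, 47.5 and 46.3 CPM in males. Male 1 was the highest sample for both keratins. The edgeR adjusted p of Krt8, whose log2 fold change was 0.46, was 0.379, and its log2 fold change was 0.296 without male 1. The claudin Cldn1 had a log2 fold change of 0.07 with an SE of 0.17. The multiciliation list had a median of 0.17 over 7 tested IDs. Foxj1, the master factor of motile cilia, was at 33.2, 46.9 and 52.6 CPM in females and 68.3, 52.1 and 56.2 CPM in males, with a log2 fold change of 0.41 and an SE of 0.18 (edgeR adjusted p = 0.416). Without female 1 the log2 fold change of Foxj1 was 0.24. Ccno and Deup1, which act in centriole amplification, had log2 fold changes of 0.20 and 0.17.

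Genes of the roof plate and cortical hem, the dorsal midline tissue next to the developing choroid plexus, had a median log2 fold change of -0.11 over 12 tested IDs, none at an unadjusted p under 0.05. Bmp5 was at 42.5, 58.1 and 43.9 CPM in females and 29.4, 25.5 and 47.9 CPM in males, so male 3 overlapped the females. Rspo3, an agonist of Wnt signalling, was at 46.5 to 49.1 CPM in females and 37.8 to 41.3 CPM in males. The log2 fold change of Rspo3 was -0.27 with an SE of 0.14 (edgeR adjusted p = 0.462), and that of Bmp7 was -0.11. Genes that handle the cargo of transthyretin, retinoids and thyroid hormone, had a median of 0.05 over 12 tested IDs. The thyroid hormone receptor ID Thra NM_001313983 was at 101, 81.5 and 124 CPM in females and 148, 141 and 119 CPM in males, with a log2 fold change of 0.41 and an SE of 0.16 (edgeR adjusted p = 0.379, and 0.0485 with 2 RUVr factors).

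**Figure D4:**
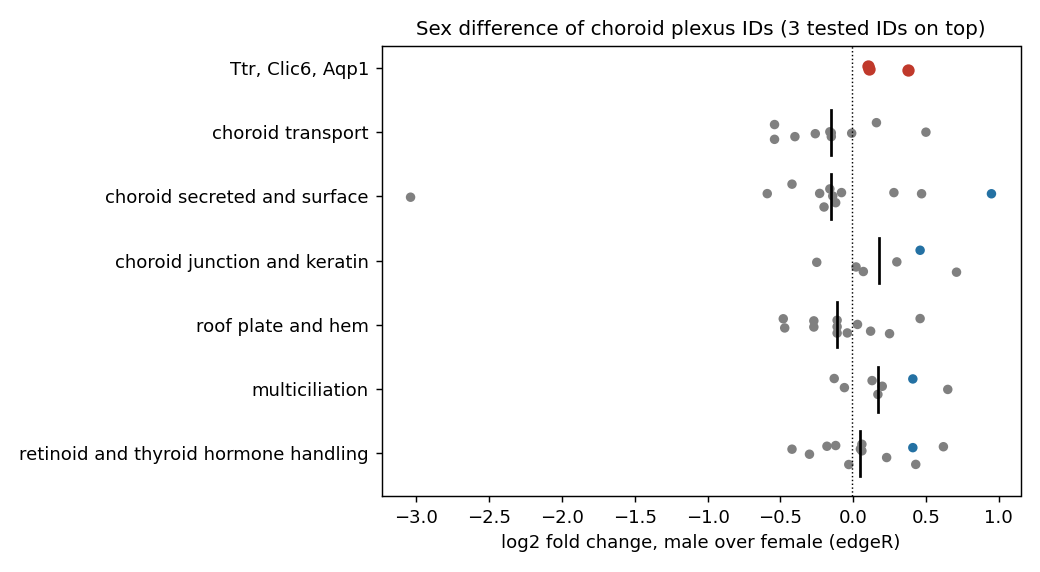
Log2 fold change of male over female for the 3 tested choroid plexus IDs (top) and the 59 tested IDs of the 6 further lists (rows), with list medians as black bars and the median of all tested IDs, -0.01, as a dotted line. The 4 blue points are list IDs with an unadjusted p under 0.05, and all lie to the right of 0; of the 3 red points Ttr, the rightmost, also had one.

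The members followed the IDs of the epithelial lists to different extents. Over 18 IDs of the 3 epithelial lists with a mean of 50 or more counts, the median r with Ttr was 0.06, against 0.18 over the 8355 IDs. For Clic6 the medians were 0.42 and 0.16, and for Aqp1 0.30 and 0.17. Of the 18 epithelial IDs 38.9% had a positive r with all 3 genes, and of the 8355 IDs 40.4% did. These values describe IDs that share the same 6 libraries, and no p was computed for them. The transport IDs ran mostly against Ttr, with a median r of -0.50 over 7 IDs. The junction and keratin IDs ran with Ttr, with a median of 0.56 over 4 and r from 0.27 to 0.90. The multiciliation IDs had a median of 0.49 over 4, but r ran from -0.57 to 0.87. The neural IDs had a median of 0.85 over 5, from 0.05 to 0.98. The roof plate and hem IDs had a median of -0.31 over 10, from -0.73 to 0.47. The retinoid and thyroid hormone IDs had a median of 0.24 over 9, from -0.64 to 0.93. The IDs for secreted and surface proteins had a median of 0.18 over 7. The neural list summed to 2450, 2690 and 2840 CPM in females and 3510, 3180 and 2620 CPM in males, so male 1 was the highest for it as for Ttr. Of the 7 tested neural IDs 4 lay above 0 in log2 fold change of male over female and 3 below, with a median of 0.16. Tubb3 and Sox2, each at 0.39, had an unadjusted edgeR p under 0.05, where 11.5% of all IDs had one. The part of neural RNA in the Ttr values was not tested.

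Some of these genes are also transcribed elsewhere, so markers of other tissues were read in the same samples. Ttr is also made in liver. The liver list, with 4 of 7 IDs tested, had a summed level of 7.56 to 11.8 CPM in females and 5.4 to 7.49 CPM in males, and Alb, the albumin gene, at 1.38 to 4.19 CPM. The retinal pigment epithelium also expresses Ttr and Otx2. Its list, with 4 of 6 IDs tested, summed to 27.8 to 36.9 CPM in females and 35.8 to 44.6 CPM in males, most of it Pmel at 22.0 to 37.6 CPM. Best1 had 12 to 34 counts, Slc45a2 7 to 22, and Rpe65, the retinoid isomerase of this tissue, 0 to 2. Aqp1 is found in red cells and vessels. The erythroid list, with 7 of 8 IDs tested, summed to 759 to 1020 CPM in females and 635 to 1170 CPM in males. The endothelium and stroma list, with 10 of 10 IDs tested, reached 19500 to 23900 CPM in females and 18000 to 26300 CPM in males, nearly all from the collagens Col1a1, Col1a2 and Col3a1. The midbrain list, with 5 of 7 IDs tested, summed to 69.1 to 79.1 CPM in females and 70.7 to 81.1 CPM in males.

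By Pearson's r Aqp1 followed 2 of these lists most closely across the 6 samples, but neither relation passed correction over the 15 pairs of a member and a list. With the endothelium and stroma list r was 0.84 (exact permutation p = 0.025, adjusted 0.188) and rho was 0.77 (exact permutation p = 0.103). That sum is nearly all collagen, and over 9 single IDs of the list r with Aqp1 ran from -0.55 to 0.92 with a median of 0.44. With the retinal pigment epithelium list r was 0.81 (exact permutation p = 0.00556, adjusted 0.0833) and rho was 0.89 (exact permutation p = 0.0333, adjusted 0.308). Without the 2 samples farthest from the median these r values were 0.49 and 0.67. The rho of Aqp1 with the midbrain list was 0.83 (exact permutation p = 0.0583, adjusted 0.308), beside an r of 0.63 (exact permutation p = 0.126). For the other 13 pairs the adjusted p was 0.479 or more by Pearson's r and 0.308 or more by rho, among them Ttr with the liver list, at an r of -0.44 and a rho of -0.77, and Ttr with the retinal pigment epithelium list, at an r of 0.6 and a rho of 0.77. The part of other tissues in the values of Ttr, Aqp1 and Clic6, and of the 6 further choroid plexus lists, was not tested.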

How the data were processed

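Total RNA of E15.5 whole brains, extracted singly and pooled into 6 samples, was sequenced in stranded, paired-end libraries. Per the labels and the published methods, Trimmomatic 0.32 trimmed the reads, which were aligned to mm9 with TopHat2 2.1.1 and assembled with Cufflinks 2.2.1 and Cuffmerge. The authors deposited raw counts per RefSeq transcript ID, made with featureCounts 1.5.1. Settings for strand, shared reads and multiple alignments are not given in the sources used here. The study tested with DESeq2 and RUVr, which removes unwanted variation estimated from residuals.

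A RefSeq gene table on GRCm38.p6 named 23359 of 23485 IDs. Positions and lengths came from GENCODE on NCBIM37. Male and female samples were compared with edgeR 4.0.16 (quasi-likelihood F test, TMM, R 4.3.3), over IDs that reached 10 counts in 1 sample or more, with Benjamini-Hochberg adjustment over all 13374 IDs. Log2 CPM used a prior count of 2. The scripts were tested on simulated data. DESeq2 1.42.0, other scalings and filters, and RUVr factors were alternatives. Correlations used exact permutation of 6 samples in SciPy 1.17.1.

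All member IDs are named, and from each other list the 3 IDs highest in CPM, plus any with an adjusted p under 0.05, or an unadjusted one with no overlap. Some IDs that this rule covers are not reported here. Rpe65 and the Thra ID NM_178060 were named after their values were seen. The members and lists were chosen with earlier results of these data known. No batch is labelled, and separate litters are not stated, so p-values measure the spread between these samples.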

Additional observations from a re-analysis of the deposited data

How the results depend on the processing

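The Ttr log2 fold change stayed positive in all 17 alternatives, and passed an adjusted p under 0.05 in 1, DESeq2 with 1 RUVr factor (0.361, adjusted p = 0.043), which called 1 choroid plexus ID. Leaving out each sample gave 0.284 to 0.491 for Ttr, 0.0196 to 0.232 for Aqp1 and -0.0229 to 0.213 for Clic6, and the members at an unadjusted p under 0.05 numbered 0 to 1. With the replicate number as a block the log2 fold changes were 0.378, 0.111 and 0.0974. The numbers did not pair the samples, with correlations of same-numbered deviations of -0.29, -0.064 and -0.2. The median r of the 3 pairs was 0.393 with upper-quartile factors and 0.172 to 0.629 with a sample left out, and r of Ttr and Aqp1 was -0.041 to 0.616, negative without male sample 1.

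In the 6 lists, 1 ID was called without a low-count filter and 2 with 2 RUVr factors in edgeR. The IDs with an unadjusted p under 0.05 numbered 7 without a filter, 8 and 9 with 1 and 2 RUVr factors, and 0 to 8 with a sample left out, beside 2351 of 23485 IDs in all without a filter, 17.8% and 21.5% with 1 and 2 factors and 5.61% to 16.1% with a sample left out. Over all IDs, 107 were called by DESeq2, 276 without a filter, 1 with 10 or more counts in every sample, 36 and 483 with 1 and 2 RUVr factors, 370 with DESeq2 and 1 factor, and 4 to 51 with a sample left out. Slc2a12 turned to 0.0128 without a filter. Leaving out a sample spanned 0 for Slc2a12 (-0.145 to 0.2), Sostdc1 (-0.387 to 0.005), Cldn1 (-0.114 to 0.225), Bmp7 (-0.223 to 0.0171), Deup1 (-0.0239 to 0.3) and Ccno (-0.115 to 0.404). The cause of these changes was not tested. Otx2 and Kcne2 could not be compared, since their counts lie at or near the floor.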
